A study of Mus musculus with 8 samples.

Results

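*Anxa1*, *Anxa2*, *Anxa3*, *Anxa5*, *Clu* and *Ly6a* are 6 genes that mark the fetal-like, regenerating state of the intestinal epithelium, and they were followed in sorted mouse intestinal stem cells with and without a second loss of Mll1. They were chosen by symbol and make up 6 of the 53801 genes counted. All 6 had enough counts to be among the 16445 genes tested. None of the 6 differed between the genotypes beyond the spread between mice, and the intervals left room for changes of several fold in *Anxa1*, *Anxa3* and *Ly6a*.

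Annexins are cytosolic proteins that bind acidic membrane phospholipids when calcium rises, and they take part in membrane repair, vesicle traffic and the ending of inflammation. After irradiation, ulceration or worm infection, crypt cells can leave the homeostatic Lgr5+ state and take up a program close to that of the fetal gut, with *Anxa1*, *Clu* and *Ly6a* (which encodes the surface protein Sca-1) among its best-known markers. YAP and TEAD factors drive much of this program, and interferon is a known inducer of *Ly6a*.

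Lgr5-GFP+ cells were sorted from the small intestinal crypts of 8 mice, 4 called β-catGOF; Mll1-/- and 4 called β-catGOF; Mll1+/-, and their polyadenylated RNA was sequenced after Smart-seq2 amplification. The comparison asks what loss of the second *Mll1* allele, which encodes a histone H3 lysine methyltransferase, does to stem cells with an activated Wnt pathway. All 8 mice carried Lgr5-EGFP-IRES-CreERT2, so that the Cre was driven from the Lgr5 locus, together with the exon-deletion allele that stabilises β-catenin (β-catGOF). The floxed Mll1 allele was homozygous in the first group and heterozygous in the second, which is the control. The control thus lacks 1 *Mll1* allele, and no cells with unmutated β-catenin were analysed here. Tamoxifen was injected at 50 mg/kg on 3 consecutive days into mice of 4 to 6 weeks, and the cells were taken 10 days after induction. Recombination by this Cre is mosaic, so a sorted pool can hold cells that kept their alleles.

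Each library held 14468751 to 16847793 counts on genes, and a floor of 3 counts corresponded to 0.162 to 0.241 CPM (counts of a gene scaled to library size with TMM). *Kmt2a*, which encodes Mll1, ranged from 53.5 to 78.5 CPM with the β-catGOF; Mll1-/- label and from 48.9 to 64.9 CPM in the controls (log2 fold change 0.24, SE 0.17, edgeR adjusted p = 0.710), and *Ctnnb1*, which encodes β-catenin, differed by 0.10 (SE 0.13, edgeR adjusted p = 0.860). The counts cover the whole gene and cannot show the deleted exons, so the libraries are named here by their labels. J_7135, labelled β-catGOF; Mll1-/-, stood apart from the other 7 libraries, with a highest Spearman correlation over genes of 0.909 where each of the others reached at least 0.947. It also held transcripts of both sexes, 3838 counts of *Xist* and 3043 of Y-linked genes. The mouse numbers form 2 sets, J_7075 to J_7100 and J_7134 to J_7139, each with 2 libraries of either genotype. In the first set both control libraries held *Xist* and both β-catGOF; Mll1-/- libraries held Y-linked transcripts, so sex and genotype cannot be told apart there. *Epcam* (1255 to 1697 CPM) and *Lgr5* (215 to 308 CPM) were abundant in all 8 libraries and the leukocyte gene *Ptprc* stayed at or below 0.957 CPM, so the sorted cells carried the markers of their label.

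Across the 16445 genes, 14 (0.0851%) had an adjusted p under 0.1 by edgeR's quasi-likelihood test, and none of the 6 genes was among them. DESeq2 called 517 genes (2.45% of those with an adjusted p) and limma-voom 103 (0.626%) at the same threshold, and 0 of the 6 by either tool. None of the 6 reached an unadjusted p under 0.05 by edgeR either, as 9.15% of all tested genes did. The libraries of the genotypes overlapped for each of the 6 genes, while they did not overlap in 6.28% of all tested genes. The fitted log2 fold change of β-catGOF; Mll1-/- over control was above 0 for 5 of the 6 genes, as for 50.8% of all tested genes. Its median was 0.54 for the 6 genes and 0.01 for all tested genes. In these bulk libraries, fewer cells that express a gene and less RNA of it per cell cannot be told apart.

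**Figure D1:**
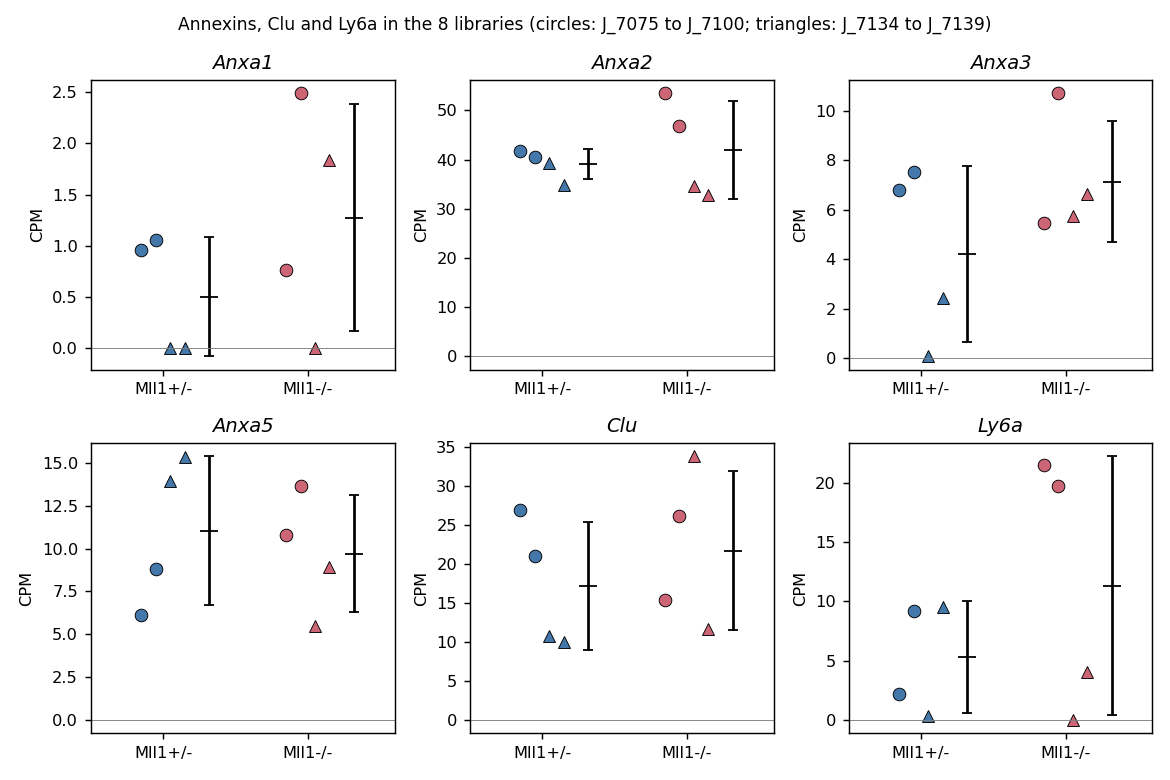
CPM of *Anxa1*, *Anxa2*, *Anxa3*, *Anxa5*, *Clu* and *Ly6a* (vertical axes, linear) in the 4 β-catGOF; Mll1+/- libraries (blue) and the 4 β-catGOF; Mll1-/- libraries (red). Circles are mice J_7075 to J_7100, triangles are mice J_7134 to J_7139, and the bars give the mean ± SD of 4 libraries. The genotypes overlap in every panel. *Anxa2* spreads least in the control libraries, and *Anxa1* and *Ly6a* range from 0 counts to their highest values within the β-catGOF; Mll1-/- libraries.

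Levels of different genes were compared as CPM per kilobase of exonic length. In the control libraries *Anxa2* was the most abundant at 10.5 ± 0.817 CPM per kilobase (SD, n = 4). It was followed by *Anxa5* at 6.22 ± 2.45, *Clu* at 5.01 ± 2.39 and *Ly6a* at 4.41 ± 3.93, whose levels lay within each other's spread. *Anxa3* was lower at 1.16 ± 0.976 and *Anxa1* the lowest at 0.193 ± 0.223 CPM per kilobase. In the β-catGOF; Mll1-/- libraries the order began with *Anxa2* (11.2 ± 2.66), *Ly6a* (9.40 ± 9.05), *Clu* (6.33 ± 2.96) and *Anxa5* (5.47 ± 1.94), neighbours that did not differ beyond their spread, and ended again with *Anxa3* (1.96 ± 0.668) and *Anxa1* (0.489 ± 0.425). Over all 8 libraries *Anxa2* ranked 4365 and *Anxa1* 15501 of the 16445 tested genes on this scale, so the classical repair marker *Anxa1* was among the least abundant genes that could be tested.

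*Anxa2* (ENSMUSG00000032231, chromosome 9 of GRCm38, 69453620 to 69491795, plus strand) encodes the annexin that forms a tetramer with S100a10 and binds tissue plasminogen activator at the cell surface. It was at 53.5 CPM in J_7075, 46.9 in J_7096, 34.6 in J_7135 and 32.8 in J_7136 among the β-catGOF; Mll1-/- libraries. In the control libraries it was at 41.8 CPM in J_7079, 40.5 in J_7100, 39.2 in J_7134 and 34.8 in J_7139. The β-catGOF; Mll1-/- libraries of the first mouse set lay above all controls and those of the second set below all controls, so the genotypes overlapped. Mean levels were 42.0 ± 9.91 CPM under the β-catGOF; Mll1-/- label and 39.1 ± 3.05 CPM in the controls (SD, n = 4 per genotype), a log2 fold change of 0.10 (SE 0.19, 95% interval -0.33 to 0.53, edgeR adjusted p = 0.909). The coefficient of variation among control libraries was 7.80%, against a median of 23.7% for all tested genes, and only 6.85% of the tested genes varied less there. A doubling of *Anxa2* lay outside this interval.

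*Anxa1* (ENSMUSG00000024659, chromosome 19, 20373428 to 20390944, minus strand) encodes the annexin that ends inflammation through formyl peptide receptors and promotes the repair of mucosal wounds. The β-catGOF; Mll1-/- libraries held 13 counts in J_7075, 43 in J_7096, 0 in J_7135 and 28 in J_7136, and the controls held 16 in J_7079, 15 in J_7100, 0 in J_7134 and 0 in J_7139. The values with reads lay between 0.767 and 2.49 CPM in the β-catGOF; Mll1-/- libraries and at 0.957 and 1.05 CPM in the controls, and libraries without a read were found in both genotypes. A count of 0 allows up to 0.162 CPM in J_7135, 0.241 in J_7134 and 0.194 in J_7139. The log2 fold change was 1.31 (SE 1.39, 95% interval -1.82 to 4.44, edgeR adjusted p = 0.828), the lowest adjusted p of the 6 genes. It was 2.27 with the mouse set as a block, 2.24 with a covariate for *Xist* against Y-linked counts and 1.98 by limma-voom, with none of them past the threshold. A change of *Anxa1* of several fold in either direction lay inside the 95% interval of the edgeR fit.

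The promoters of the most and the least abundant of these genes are shown because they differ by more than 10 CPM per kilobase in the same cells. Both are the 250 bases upstream of the gene start in RefSeq GRCm38.p6. They are written 5′ to 3′ on the gene's strand, with matches to the searched motifs in capitals. The gene spans printed above are those of the counted Ensembl genes, whose starts differ from RefSeq. The *Anxa1* window therefore lies inside its span, and the *Anxa2* window runs into its span. Positions before the start refer to RefSeq.
Anxa2: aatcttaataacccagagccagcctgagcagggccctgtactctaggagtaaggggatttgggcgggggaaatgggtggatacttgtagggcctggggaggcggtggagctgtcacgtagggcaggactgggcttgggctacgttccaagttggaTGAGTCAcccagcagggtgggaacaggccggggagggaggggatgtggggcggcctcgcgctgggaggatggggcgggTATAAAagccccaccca
Anxa1: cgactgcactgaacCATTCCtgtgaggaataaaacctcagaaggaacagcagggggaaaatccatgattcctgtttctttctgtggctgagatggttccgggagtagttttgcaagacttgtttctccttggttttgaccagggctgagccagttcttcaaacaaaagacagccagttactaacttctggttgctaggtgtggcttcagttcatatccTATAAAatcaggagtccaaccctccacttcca
The *Anxa2* window (chr9:69453433-69453682, plus strand) holds the AP-1 motif TGANTCA at 95 to 89 bases before the start and TATAAA at 17 to 12 bases before it. The *Anxa1* window (chr19:20390672-20390921, minus strand) holds the TEAD motif CATTCC at 236 to 231 bases before the start and TATAAA at 32 to 27 bases before it. The *Anxa5* window (chr3:36475888-36476137, minus strand) holds no match, and it also runs into the Ensembl span of its gene. CATTCC was found in 12.6% of 32851 RefSeq promoters of this length, TGANTCA in 6.75% and TATAAA in 7.59%. TTCNNNGAA, the motif bound by STAT factors, was in 7.02% and CTTTGAT, bound by TCF and LEF factors, in 3.21%, and neither was in these 3 windows. All motifs but TATAAA, which was searched on the gene's strand, were searched on both strands, and a match describes the letters only.

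*Anxa3* (ENSMUSG00000029484, chromosome 5, 96793339 to 96845966, plus strand) encodes an annexin with phospholipase inhibitor activity. It was at 5.49 CPM in J_7075, 10.7 in J_7096, 5.73 in J_7135 and 6.63 in J_7136. The controls were at 6.82 CPM in J_7079, 7.52 in J_7100, 0.0802 in J_7134 and 2.45 in J_7139. The controls of the first mouse set lay within the range of the β-catGOF; Mll1-/- libraries, while the controls of the second set lay below it, with 1 count in J_7134. Mean levels were 7.14 ± 2.43 CPM under the β-catGOF; Mll1-/- label and 4.22 ± 3.56 CPM in the controls (SD, n = 4 per genotype), a log2 fold change of 0.75 (SE 0.82, 95% interval -1.09 to 2.59, edgeR adjusted p = 0.833). Without J_7134 it was 0.35. It was 1.17 with the mouse set as a block, 1.37 by limma-voom and 2.12 with the *Xist* covariate, again not past the threshold. Of the exonic bases of *Anxa3*, 3.07% overlap *Gm42603* on the same strand.

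*Anxa5* (ENSMUSG00000027712, chromosome 3, 36448923 to 36475894, minus strand) encodes the annexin that binds phosphatidylserine and is used to stain dying cells. It was at 10.8 CPM in J_7075, 13.7 in J_7096, 5.46 in J_7135 and 8.93 in J_7136, and at 6.10 CPM in J_7079, 8.79 in J_7100, 13.96 in J_7134 and 15.4 in J_7139 among the controls. In the first mouse set both β-catGOF; Mll1-/- libraries were above both controls, and in the second set both were below. The difference of mean log2 CPM was 0.72 in the first set and -1.05 in the second. An edgeR fit with an interaction of mouse set and genotype, added after this was seen, gave a change of the difference by -1.74 (SE 0.53, unadjusted p = 0.013, adjusted p = 0.671 over all genes). Over all libraries *Anxa5* was the gene with a fitted decrease, -0.19 (SE 0.38, 95% interval -1.03 to 0.66, edgeR adjusted p = 0.919). The value was 0.01 without J_7135 and 0.02 without J_7139, so its sign rested on either of these libraries.

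Of the 8 other annexin genes, 4 could be tested and 0 were called by edgeR, DESeq2 or limma-voom, with 2 at an unadjusted p under 0.05 and a median log2 fold change of 0.66. *Anxa4*, an epithelial annexin of secretory membranes, was by far the most abundant at 717 ± 53.0 CPM in the controls and 758 ± 173 CPM in the β-catGOF; Mll1-/- libraries (SD, n = 4 each), and its log2 fold change was 0.08 (SE 0.16, adjusted p = 0.919). Per kilobase it stood at 154 ± 11.4 CPM in the controls, above all 4 annexins of the repair group. *Anxa13*, an intestine-specific annexin of apical transport, was at 12.5 to 27.6 CPM in the β-catGOF; Mll1-/- libraries and at 5.77 to 14.3 CPM in the controls (log2 fold change 1.07, SE 0.35, adjusted p = 0.429). *Anxa6* was at 1.46 to 11.7 CPM and 0.160 to 2.57 CPM (2.09, SE 0.82, adjusted p = 0.499), and *Anxa7* differed by 0.25 (SE 0.16, adjusted p = 0.670). *Anxa9*, *Anxa10* and *Anxa11* stayed at or below 1.36 CPM and were not tested, and *Anxa8* had no count in any library.

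**Figure D2:**
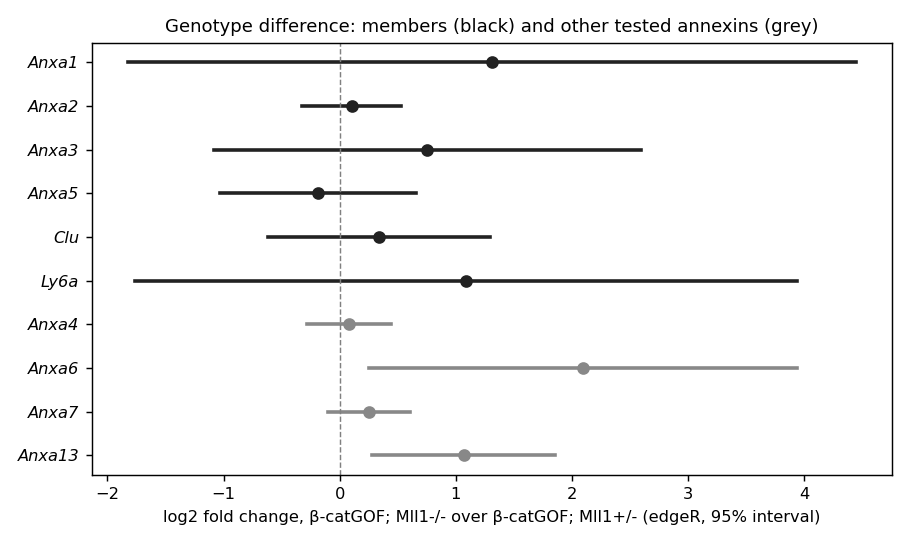
Log2 fold change of β-catGOF; Mll1-/- over β-catGOF; Mll1+/- (horizontal axis, points, edgeR) with its 95% interval (bars) for *Anxa1*, *Anxa2*, *Anxa3*, *Anxa5*, *Clu* and *Ly6a* (black) and the 4 other annexins that could be tested (grey), from 4 libraries per genotype. The dashed line marks no difference. The intervals of all 6 black genes cross it, and they are narrow for *Anxa2* (-0.33 to 0.53) and wide for *Anxa1* (-1.82 to 4.44).

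Among 9 partners of the annexins, 5 could be tested, 3 above and 2 below 0. EdgeR called 0 of them, DESeq2 called 2 (*S100a6* and *Plat*, the latter named after its values were seen) and limma-voom called 1 (*S100a6*). *S100a10*, the S100 subunit of the *Anxa2* tetramer, was abundant and nearly level, at 196 to 301 CPM in the β-catGOF; Mll1-/- libraries and 203 to 298 CPM in the controls (log2 fold change -0.12, SE 0.18, adjusted p = 0.887). *S100a11*, which binds *Anxa1*, differed by 0.03 (SE 0.35, adjusted p = 0.986), and its sign changed when single libraries were left out. *S100a6*, a calcium-binding protein that associates with several annexins, was at 41.2 CPM in J_7075, 30.7 in J_7096, 20.0 in J_7135 and 48.1 in J_7136, and at 3.11 CPM in J_7079, 14.6 in J_7100, 9.22 in J_7134 and 4.84 in J_7139. The genotypes did not overlap, as in 6.28% of all tested genes, which by itself fixes the sign within each mouse set. The difference of mean log2 CPM was 2.37 in the first set and 2.19 in the second. Its log2 fold change of 2.14 (SE 0.48) had an adjusted p of 0.216 by edgeR, short of the threshold, while it passed by DESeq2 (2.15, adjusted p = 0.00098) and by limma-voom (2.44, adjusted p = 0.0689). *Ahnak*, a scaffold bound by the *Anxa2* tetramer, had the lowest value of the list (-0.41, SE 0.50, adjusted p = 0.851), and the formyl peptide receptors *Fpr1* and *Fpr2* stayed at or below 0.968 CPM.

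*Clu* (ENSMUSG00000022037, chromosome 14, 65968483 to 65981547, plus strand) encodes clusterin, a secreted chaperone that marks the rare revival stem cells of the damaged gut. It was at 15.3 CPM in J_7075, 26.2 in J_7096, 33.9 in J_7135 and 11.6 in J_7136, and at 27.0 CPM in J_7079, 21.1 in J_7100, 10.8 in J_7134 and 10.0 in J_7139. High and low libraries were found in both genotypes, and the highest was J_7135, the library that stood apart. Mean levels were 21.8 ± 10.2 CPM under the β-catGOF; Mll1-/- label and 17.2 ± 8.23 CPM in the controls (SD, n = 4 per genotype), a log2 fold change of 0.34 (SE 0.42, 95% interval -0.62 to 1.29, edgeR adjusted p = 0.856). Without J_7135 it was 0.04. The difference of mean log2 CPM was -0.25 in the first mouse set and 0.92 in the second.

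*Ly6a* (ENSMUSG00000075602, chromosome 15, 74994877 to 74998031, minus strand) was at 21.5 CPM in J_7075, 19.8 in J_7096, 0 in J_7135 and 4.01 in J_7136 among the β-catGOF; Mll1-/- libraries. The controls were at 2.21 CPM in J_7079, 9.21 in J_7100, 0.321 in J_7134 and 9.49 in J_7139. The highest and the lowest library thus carried the same genotype label, and all 4 controls lay between them. Mean levels were 11.3 ± 10.9 CPM under the β-catGOF; Mll1-/- label and 5.31 ± 4.73 CPM in the controls (SD, n = 4 per genotype), a log2 fold change of 1.09 (SE 1.27, 95% interval -1.76 to 3.94, edgeR adjusted p = 0.848). It was 1.51 without J_7135. The difference of mean log2 CPM was 2.15 in the first mouse set and -1.52 in the second, and with the set as a block the fold change was 0.33. Of the 31-base words of its transcripts, 31.9% are shared with other genes, most with *Ly6c1*. The counts are of uniquely mapped reads, and the effect of these shared words on the *Ly6a* count was not tested. *Ly6c1* reached 3.01 CPM in J_7075 and at most 0.775 CPM elsewhere. *Ly6e* was the other member of its family above the filter, at 87.0 to 255 CPM in the β-catGOF; Mll1-/- libraries and 91.0 to 137 CPM in the controls (log2 fold change 0.73, SE 0.31, adjusted p = 0.526).

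*Ly6a* was set beside 14 interferon-response genes. All 14 were tested, with a median log2 fold change of 0.80. All 14 fitted fold changes were above 0, as were 50.8% of all tested genes. By edgeR 5 had an unadjusted p under 0.05, as had 9.15% of all tested genes, and 0 were called. DESeq2 called 3 of the 14 (*Irf7*, *Ifit3* and *Gbp3*, named after their values were seen) and limma-voom 1 (*Gbp3*). Over all genes these tools called 2.45% and 0.626%. Their summed level was highest in the same 2 libraries as *Ly6a*, 580.5 CPM in J_7075 and 470 CPM in J_7096, and lay between 188 and 298 CPM in the other 6. J_7135, without a read of *Ly6a*, was at 284 CPM, inside that range. The control J_7100, with *Ly6a* at 9.21 CPM, had an interferon sum of only 193 CPM. *Gbp2*, an interferon-induced GTPase with the highest fold change of the list, was at 26.8 CPM in J_7075 and 16.0 in J_7096 and at or below 3.15 CPM in the other 6 libraries (log2 fold change 3.11, SE 1.215, adjusted p = 0.499). Its difference was 3.91 in the first mouse set and -0.46 in the second. *Oasl2*, an antiviral gene at the other end of the list, differed by 0.09 (SE 0.28, adjusted p = 0.951), with a sign that changed when J_7075, J_7100 or J_7134 was left out. J_7075 and J_7096 are also the β-catGOF; Mll1-/- libraries of the first mouse set, in which sex follows the genotype, and the part of these in the *Ly6a* values was not tested.

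**Figure D3:**
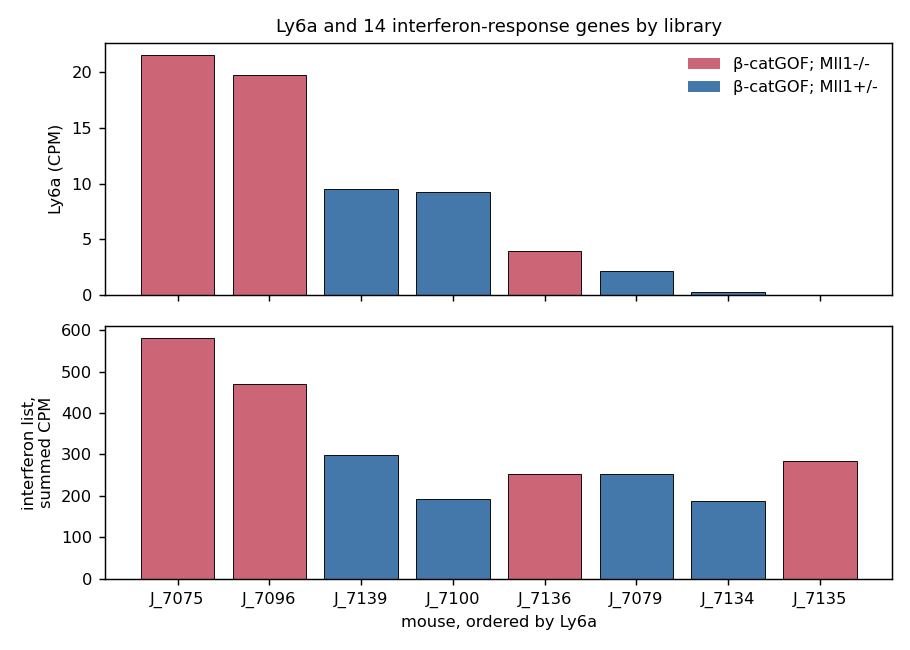
*Ly6a* in CPM (upper panel) and the summed CPM of 14 interferon-response genes (lower panel) in each of the 8 libraries, ordered by *Ly6a*. Bars are single libraries, red for β-catGOF; Mll1-/- and blue for β-catGOF; Mll1+/-. J_7075 and J_7096 are highest in both panels, and J_7135 has 0 counts of *Ly6a* with an interferon sum of 284 CPM.

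Of 14 other genes of the fetal-like and repair program, 7 could be tested, 6 above and 1 below 0, with a median log2 fold change of 0.56 by edgeR, which called 0. DESeq2 called 2 of them, *Tnfrsf12a* and *Krt7*, and limma-voom 0. The highest was *Tnfrsf12a*, the receptor of the cytokine TWEAK, at 25.4 CPM in J_7075, 17.7 in J_7096, 33.9 in J_7135 and 20.0 in J_7136, and at 17.7 CPM in J_7079, 8.79 in J_7100, 10.99 in J_7134 and 6.91 in J_7139. The genotypes touched without overlapping at 17.7 CPM, and the log2 fold change was 1.13 (SE 0.33, edgeR adjusted p = 0.371), with an adjusted p of 0.0629 by DESeq2 and 0.259 by limma-voom. *Krt7*, a keratin of the fetal and metaplastic gut that was picked out after its values were seen, did not overlap either, at 89.3 to 164 CPM and 62.4 to 83.4 CPM (0.79, SE 0.21, edgeR adjusted p = 0.320, DESeq2 adjusted p = 0.0508). The lowest was *Ereg*, an EGF receptor ligand, at -1.37 (SE 1.04, adjusted p = 0.740). Defining markers of the program such as *Spp1*, *Gja1*, *Msln* and *Sprr1a* stayed at or below 1.97 CPM in all libraries.

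YAP and TEAD factors and their targets showed 6 tested genes above and 4 below 0 among 10, with a median of 0.06 and 0 called by edgeR, DESeq2 or limma-voom. *Yap1* was at 19.6 to 49.0 CPM in the β-catGOF; Mll1-/- libraries and 27.3 to 44.6 CPM in the controls (log2 fold change -0.05, SE 0.29, adjusted p = 0.974). *Ptpn14* was the highest of the list (0.63, SE 0.45, adjusted p = 0.727) and *Ajuba* the lowest (-0.91, SE 0.73, adjusted p = 0.750). *Yap1* was named after its values were seen, as was *Cyr61*, a classical YAP target, whose libraries did not overlap at 81.5 to 115 CPM and 44.5 to 79.0 CPM (0.61, SE 0.20, adjusted p = 0.429).

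**Figure D4:**
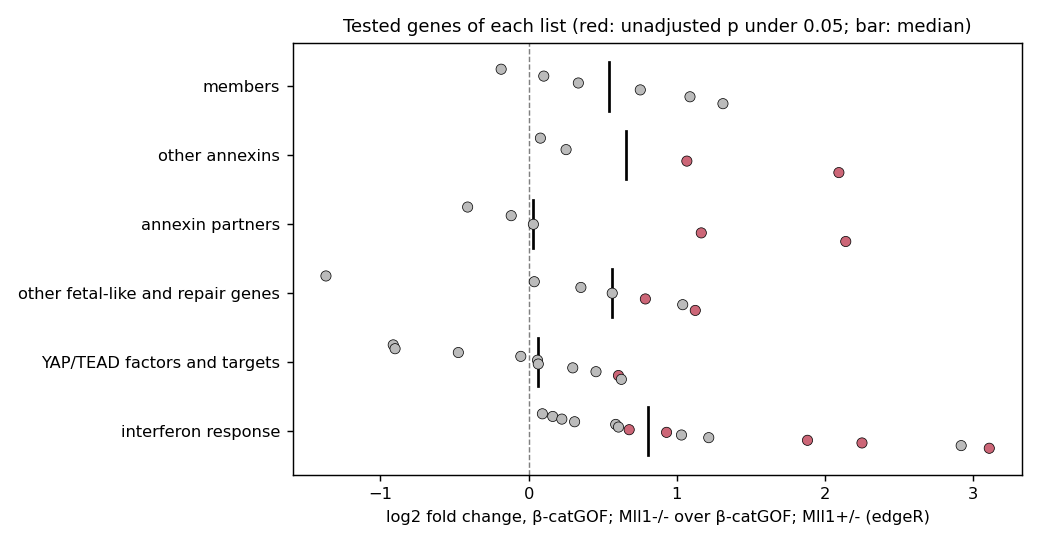
Log2 fold change of β-catGOF; Mll1-/- over β-catGOF; Mll1+/- (horizontal axis, edgeR, 4 libraries per genotype) for each tested gene of 6 lists (rows). Points are genes, red where the unadjusted p is under 0.05 and grey otherwise, and the black bar is the median of the list. The 6 genes named members are *Anxa1*, *Anxa2*, *Anxa3*, *Anxa5*, *Clu* and *Ly6a*, and none of them is red, while *S100a6* and *Gbp2* lie furthest to the right in their lists.

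Markers of other cells that can express annexins or Sca-1 were measured in the same libraries. The sort used antibodies against EpCAM and CD45, an epithelial and a leukocyte surface protein, which allow such cells to be gated out, but how these gates were set is not given in the sources used here. The 12 immune genes summed to 1.24 to 7.70 CPM in the β-catGOF; Mll1-/- libraries and 4.58 to 8.50 CPM in the controls, and *Cd79a*, *C1qa* and *C1qb* had under 10 counts over all libraries. *Itgam*, a myeloid integrin under the filter, went with *Ly6a* in part, with 44 counts in J_7075, 56 in J_7096, 17 in J_7136 and 0 in J_7135. The controls held 0 counts in 3 libraries and 7 in J_7139, and the highest level was 3.24 CPM. J_7100 was among the controls without a read of *Itgam*, at 9.21 CPM of *Ly6a*. The leukocyte gene *Ptprc* went the other way, with 0 to 2 counts in the β-catGOF; Mll1-/- libraries and 3 to 16 in the controls. *Itgam* was named after its values were seen, and its part in the *Ly6a* values was not tested. The 6 endothelial genes summed to 4.46 to 6.70 and 5.29 to 6.58 CPM. The tested gene of the immune list, the lysozyme gene *Lyz2*, differed by -0.90 (SE 0.60, adjusted p = 0.697) and that of the endothelial list, *Pecam1*, by -0.02 (SE 0.29, adjusted p = 0.991). The sum of the 9 stromal genes differed, with 45.2 to 118 CPM in the β-catGOF; Mll1-/- libraries and 2.32 to 6.66 CPM in the controls. In the β-catGOF; Mll1-/- libraries almost all of it was *Vim*, the intermediate filament vimentin, at 116 CPM in J_7075, 47.4 in J_7096, 44.3 in J_7135 and 81.6 in J_7136. In the controls *Vim* was at 3.11 CPM in J_7079, 4.78 in J_7100, 4.89 in J_7134 and 0.194 in J_7139, where the stromal sum was 2.32 CPM. Its log2 fold change of 4.48 (SE 0.70) had an adjusted p of 0.108 by edgeR, 3.09e-05 by DESeq2 and 0.0571 by limma-voom, so its call depended on the tool. The fibroblast genes *Col1a1*, *Col1a2*, *Col3a1*, *Dcn* and *Pdgfra* stayed at or below 1.48 CPM in every library. *Col1a2* was highest in J_7075 (25 counts) and J_7136 (19 counts), the libraries with most *Vim*, against 1 to 12 counts in the controls. It had 3 counts in J_7096 and 1 in J_7135, the other β-catGOF; Mll1-/- libraries. The other collagens differed from it, as *Col1a1* had 13 counts in J_7136 but 0 in J_7075. *Col3a1* had 0 in J_7075, 1 in J_7136 and its most, 10, in the control J_7134. The part of stromal cells in the *Vim* or annexin values was not tested.

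The 10 homeostatic stem cell genes were split, with 3 above and 7 below 0, a median of -0.05 and 0 called by edgeR. *Olfm4*, an abundant stem cell gene, was the lowest (-0.77, SE 0.17, edgeR adjusted p = 0.200) and the single call of DESeq2 (adjusted p = 0.0165) and limma-voom (adjusted p = 0.0571) in the list. *Znrf3*, a Wnt receptor ligase, was the highest (0.48, SE 0.22, adjusted p = 0.562). *Lgr5* itself differed by -0.06 (SE 0.13, adjusted p = 0.933). All 6 epithelial genes were above 0 with a median of 0.37, from *Cdh1* at 0.03 (SE 0.18, adjusted p = 0.978) to *Krt18* at 0.72 (SE 0.22, adjusted p = 0.401). EdgeR and limma-voom called 0 of them and DESeq2 called 1, *Krt8*, named after its values were seen.

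How the 6 genes varied together was measured over the 8 libraries in 15 pairs, and no pair had a Benjamini-Hochberg adjusted p under 0.05 for Pearson's r or Spearman's rho (exact permutation tests, two-sided). *Anxa5* and *Clu* ran against each other, with r = -0.69 (p = 0.067, adjusted 0.325) and rho = -0.83 (p = 0.015, adjusted 0.115, exact permutation tests). Without J_7079 and J_7135, the libraries farthest from the median of *Anxa5*, r was -0.24, and without J_7135 alone it was -0.53. Leaving out the extremes narrows the range of *Anxa5*, so these values cannot tell whether the relation rested on those libraries. *Anxa1* and *Anxa3* were both low in J_7134 and J_7139 and both highest in J_7096, but J_7135 had no read of *Anxa1* and 106 of *Anxa3*. This pair was the 1 of 15 with an unadjusted p under 0.05 for Pearson's r (p = 0.0049, adjusted 0.0737) and had p = 0.013 (adjusted 0.115) for rho by exact permutation tests, both positive. The libraries fall into 3 without and 5 with *Anxa1* reads, too few to test the relation within either, so no pooled coefficient is read from them.

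Among 8914 tested genes with a mean of at least 10 CPM, those whose log2 CPM followed each of the 6 genes most closely over the 8 libraries are given as a description, since the highest of many coefficients is high in any case. *Anxa2* was followed by *Cd1d1* (Pearson r = 0.95), *Txn-ps1* (0.95) and *Kdelr1* (0.94). *Anxa1* was followed by *Zfp644* (0.96), *Vps26b* (0.96) and *Myo9a* (0.96), and *Anxa3* by *Bsdc1* (0.98), *Brd1* (0.97) and *Tuft1* (0.96). *Anxa5* was followed by *Kpna3* (0.96), *Prelid3b* (0.94) and *Sept7* (0.94), *Clu* by *6720489N17Rik* (0.93), *Fis1* (0.93) and *Cd99l2* (0.90), and *Ly6a* by *Kctd3* (0.98), *Cenpc1* (0.96) and *Marcks* (0.95). None of these 18 genes belongs to the annexin, Ly6, interferon or repair lists.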

How the data were processed

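Sequencing of Lgr5-GFP+ cells from 8 mice was analysed from 2 tables. The authors deposited raw counts of uniquely mapped reads for 53801 genes and 92 spike-in transcripts, made with GSNAP on mm10 and featureCounts 1.6.3 on Ensembl genes without strand. A second deposited table, for 25485 genes, holds a signal, the count over the size factor of its library (0.811 to 1.17, recovered here), and was used only to find the 6 genes by symbol. Depth was 14468751 to 16847793 counts per library. The libraries came from small pools of sorted cells. Smart-seq2 reads carry no molecular identifiers, so floors cover counting error only.

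The filter was filterByExpr (minimum count 10, minimum total 15). Counts were scaled with TMM and fitted with edgeR 4.0.16 in R 4.3.3 (robust quasi-likelihood, genotype as the only term, two-sided, Benjamini-Hochberg adjustment over 16445 genes, threshold 0.1). The common biological coefficient of variation was 0.435. Log2 CPM used a prior count of 2. Standard errors come from the F statistic. The promoter sequences are those of RefSeq GRCm38.p6, in which 3 of the 6 genes were matched. Entries for *Anxa3*, *Clu* and *Ly6a* are missing. Words of 31 bases shared between genes were taken from the annotated transcripts. Data of 15891 genes were simulated with the mean and dispersion of each gene taken over all 8 libraries. EdgeR found 15.5% of 97 genes with a log2 change of 1 and 62.9% of 97 genes with a log2 change of 2. It made 79 calls in all, 3.80% of them false. The simulation held no mouse set, sex or outlying library. Its shares are over genes of all levels and do not describe scarce, scattered genes such as *Anxa1* by themselves.

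The genes and lists were chosen with earlier results of these data known. Named beside the 6 genes were all other annexins, *S100a10*, *S100a11*, 4 checks, and in each list the called genes and the tested genes with the highest and lowest fold change. Other genes, such as *Krt7*, *Yap1*, *Cyr61*, *Ly6c1*, *Fpr1*, *Spp1* and the collagens, were named after their values were seen. 2 listed genes had no row and were not analysed here. 1 gene of the immune list is not reported here by itself. Alternatives were other scalings, filters and tests (DESeq2 1.42.0, limma 3.58.1), mouse set as a block, a covariate for *Xist* against Y-linked counts, and each library left out. The interaction with mouse set was chosen after seeing the data.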

Additional observations from a re-analysis of the deposited data

Results flagged for a closer look

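In *Anxa5* and *Anxa2*, both β-catGOF; Mll1-/- libraries lay above both controls in the first mouse set and below both controls in the second. For *Anxa2* in the second set, J_7135 at 34.6 CPM lay just below the control J_7139 at 34.8 CPM. The difference between the genotypes changed from the first set to the second by -1.74 on the log2 scale for *Anxa5* (SE 0.53, unadjusted p = 0.013, adjusted p = 0.671) and by -0.42 for *Anxa2* (SE 0.28, unadjusted p = 0.170, adjusted p = 0.817) in an edgeR fit with an interaction term. By the same term the change was 6.17 for *Anxa1* (SE 3.28), 2.08 for *Anxa3* (SE 1.41), 1.34 for *Clu* (SE 0.73) and -3.18 for *Ly6a* (SE 2.44). Their unadjusted p by edgeR ran from 0.108 to 0.233 and their adjusted p from 0.770 to 0.858. No gene of the 16445 had an adjusted p under 0.1 for this term by edgeR, and 1128 had an unadjusted p under 0.05. No other tool was run for it.

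Spike-in transcripts held 36 counts in the control library J_7100 and 0 to 2 counts in each of the other 7 libraries. They took 0.000229% as many counts as the genes in J_7100 and were not used in any comparison.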

How the results depend on the processing

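None of the 6 genes was called under any alternative, with adjusted p between 0.586 and 0.996. *Anxa1*, *Anxa3*, *Clu* and *Ly6a* kept a fold change above 0 throughout. Leaving out 1 library at a time, the difference on the log2 scale ran from 0.76 to 1.93 for *Anxa1*, -0.041 to 0.20 for *Anxa2* (below 0 without J_7075), 0.35 to 1.18 for *Anxa3*, -0.40 to 0.016 for *Anxa5*, 0.040 to 0.64 for *Clu* and 0.58 to 1.53 for *Ly6a*. *Anxa5* was at 0.21 by limma-voom with quality weights. *Anxa1* was at 2.27 with the mouse set as a block, 2.24 with the *Xist* covariate and 1.98 by limma-voom, *Anxa3* at 1.17, 2.12 and 1.37, *Anxa2* at 0.077, 0.0093 and 0.21, *Clu* at 0.45, 0.47 and 0.14, and *Ly6a* at 0.33, 1.02 and 1.63. *Anxa1*, *Anxa3* and *Ly6a* gave no value when 10 counts were required in every library.

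The 14 called genes became 8 with upper-quartile scaling, 47 without a filter, 34 with 10 counts in every library, 517 by DESeq2, 103 by limma-voom, 0 with the mouse set as a block (1642 at an unadjusted p under 0.05), 0 with the *Xist* covariate (1589) and 0 to 45 with a library left out (45 without J_7135). Why was not tested. Other changes of sign were *Anxa4* at -0.054 and *S100a11* at -0.074 with the *Xist* covariate, and, with a library left out, *Anxa4* (-0.032 to 0.22), *S100a11* (-0.19 to 0.22), *Lgr5* (-0.15 to 0.010), *Oasl2* (-0.14 to 0.27), *Cdh1* (-0.078 to 0.13), *Pecam1* (-0.12 to 0.067), *Pou2f3* (-0.44 to 1.03) and *Sct* (-1.30 to 0.072). Genes not called by edgeR passed under some alternatives, with adjusted p from 3.09e-05 to 0.330 for *Vim*, 0.00098 to 0.469 for *S100a6*, 0.0629 to 0.659 for *Tnfrsf12a*, 0.0165 to 0.499 for *Olfm4*, 0.0230 to 0.676 for *Fabp1*, 0.00164 to 0.499 for *Spdef*, 0.000566 to 0.384 for *Mmp7* and 0.0162 to 0.635 for *Mptx2*. No paired analysis was possible because the labels give the groups no shared replicate numbers.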

Other observations

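Markers of the differentiated lineages were counted in the same libraries. EdgeR called 0 of them, while DESeq2 called 4 of 8 enterocyte, 4 of 8 goblet cell, 5 of 8 Paneth cell, 1 of 5 enteroendocrine and 0 of 3 tuft cell genes, and limma-voom 2, 0, 1, 0 and 0 of them. DESeq2 gave no adjusted p for the enteroendocrine gene *Chga* (log2 fold change -5.93), so that gene could not be called by it. By the edgeR fit, of 8 tested enterocyte genes 7 were below 0 (median log2 fold change -1.29, 5 of them at an unadjusted p under 0.05), with the fatty acid binding protein gene *Fabp1* lowest at -2.41 and the villin gene *Vil1* highest at 0.42. Of 8 goblet cell genes 6 were above 0 (median 1.01), with the transcription factor gene *Spdef* highest at 2.41, while *Zg16* was at -4.03. Of 8 Paneth cell genes 6 were below 0 (median -0.87), from *Mptx2* at -1.74 to the metalloproteinase gene *Mmp7* at 1.04, and all 5 tested enteroendocrine genes were below 0 (median -1.48), from *Chga*, at most 0.162 CPM in the β-catGOF; Mll1-/- libraries and 0.778 to 8.02 CPM in the controls, to *Sct* at -0.91, where the sign of *Sct* changed without J_7139. The 3 tested tuft cell genes were above 0, from *Pou2f3* at 0.36 to *Hpgds* at 1.00.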
